A study of Mus musculus and Homo sapiens with 32 samples.

Results

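Mouse embryonic fibroblasts (MEF) gave 6989 strong m6A-CT regions that neither of the compared stem cell lists reached. They were found by merging all overlapping peaks of 3 deposited lists, for E14 mouse embryonic stem cells, expanded potential stem cells (EPSC) and MEF, into 44148 union regions on the mouse build mm9. A region was kept when it held MEF peaks alone and its MEF peak had a deposited -log10 q of at least 50. The kept regions were 15.8% of all union regions and 18.4% of the 38055 regions with a MEF peak. "Fibroblast-only" therefore means absence from the E14 and EPSC lists. The regions were chosen by their MEF q and that absence, so these values, and the fold of the same peaks, are given as description with no test.

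The assay, m6A-CT, tagments RNA paired with cDNA in nuclei at places where an anti-m6A antibody has bound, and its input libraries are tagmented with no antibody. Per the labels the series holds 32 libraries in 16 groups of 2. The 3 lists came from 100000 nuclei each and from 1 antibody maker (Synaptic Systems): E14 is an embryonic stem cell line, the EPSC carry the same E14 line name, and the MEF are CF1 cells. Nuclei were released with 0.020% Triton X-100 for E14 and 0.015% for EPSC, 1 min on ice, and with 0.2% NP-40 for MEF, 5 min on ice, so the cell type and the way nuclei were made cannot be told apart. E14 lists from 25000 and 5000 nuclei were not used by the rule. A further set compared wild-type C57BL/6 embryonic stem cells with C57BL/6 Mettl3-/- (KO) cells, with an antibody from MilliporeSigma. No genotype is given in the labels for E14, EPSC or MEF beyond the line names. Whether the libraries of a group were separate cultures is not stated.

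N6-methyladenosine (m6A) is a methyl mark placed on nascent RNA by a complex built around METTL3, mostly at a short consensus motif, and enriched in long internal exons and near stop codons. It is bound by YTH-family readers that direct decay, splicing or translation. Fibroblasts are the connective tissue cells that secrete collagens, fibronectin and proteoglycans, pull on them through integrins and the actin cytoskeleton, and answer to growth factors such as PDGF and TGF-beta.

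The lists differ in size. MEF has 38205 peaks, E14 8052 and EPSC 12183, and their read depth is not given in the sources used here, so a missing stem cell peak can also be one that was not detectable at that depth. There is 1 list per cell type, with no value per library, so no difference between cell types could be tested, and a larger peak can mean more transcript or more methylation of it. The fibroblast label was checked on marker genes. Of 13 fibroblast markers, 6 had a position in the files, and Col5a1, Col6a3, Fbn1 and Pdgfra had MEF peaks (4 of 6) with 0 of 6 in E14 and 0 of 6 in EPSC, while Twist1 and Vim had none in any of the 3 lists. Of 6 stem cell markers with a position, 5 had E14 peaks, 4 had EPSC peaks and 0 had MEF peaks. Among 16 markers of other cell types with a position, 0 had a MEF peak. Of all nameable genes, 39.7% had a MEF peak.

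Each of the 6989 regions was exactly 1 MEF peak, and together they covered 3444 kb. Their -log10 q ran from 50.03 to 6826 with a median of 87.4, and 2917 regions had at least 100 and 87 over 1000. Their fold enrichment, the ratio the authors' peak caller gives at the summit, ran from 1.34 to 72.7 with a median of 4.94. The distribution has no gap at the threshold. The 3 regions just outside it lie in Cplane1 (49.96), Utrn (49.99) and Taf4 (49.99), and the 3 just inside are an unnamed region on chromosome 5 (50.03), Syne3 (50.06) and Arhgap29 (50.06). With a threshold of 30 the set holds 12143 regions, and with 100 it holds 2917.

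**Figure D1:**
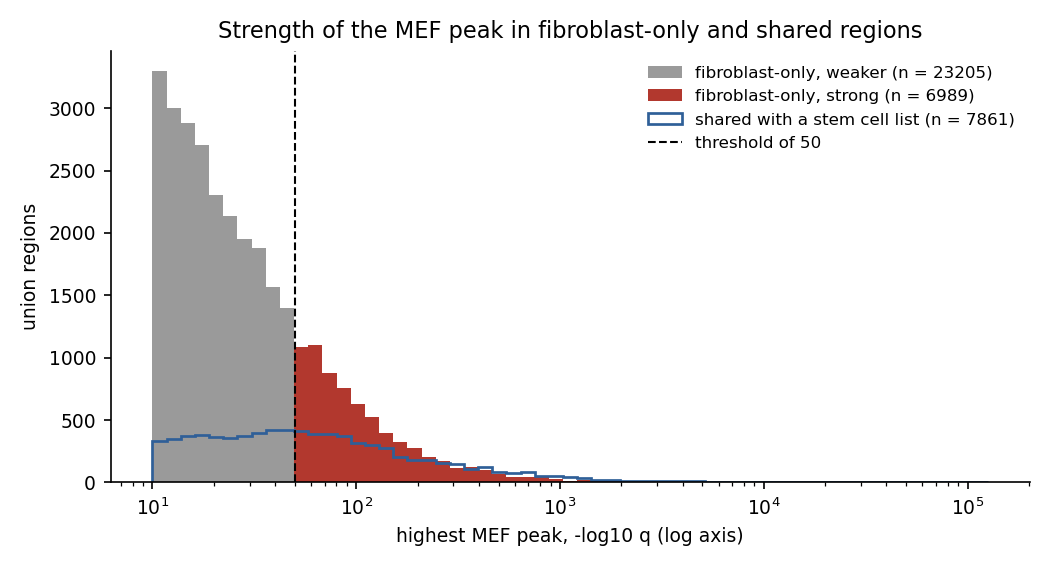
Union regions with a MEF peak by the -log10 q of their highest MEF peak (log axis), for 23205 weaker and 6989 strong fibroblast-only regions and 7861 regions shared with E14 or EPSC. The strong set begins at the threshold of 50, where the fibroblast-only counts fall steadily with no gap.

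Most regions that met an internal exon covered it with some flank. The median length of all 6989 was 302 bp (quartiles 256 and 438), and 4661 (66.7%, 95% Wilson interval 65.6 to 67.8) measured 200 to 400 bp, beside 50.5% of the 23205 weaker fibroblast-only regions and 46.0% of the 4076 strong regions shared with a stem cell list. Such intervals cover counting error alone, since regions of one gene share its RNA and PCR reads have no molecular identifiers. Of 5377 regions that could be named by a listed exon block, 3724 (69.3%) met a whole internal exon, and 3608 of those (96.9%) covered it from end to end. Where a region covered 1 exon, in 3137 cases, the median exon was 152 bp and the median region 279 bp. For weaker fibroblast-only regions 57.2% met a whole internal exon and 83.4% of those covered it. For strong shared regions the values were 74.5% and 95.7%. A few regions were long: the longest, of 11931 bp, lay on Zfp469 at chr8:124783851-124795781, and the nuclear RNA Neat1 held regions of 6795 and 6641 bp (genes chosen after their values were seen).

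Exon blocks listed with gene names in the stem cell genotype files named 5377 regions (76.9%, interval 75.9 to 77.9) by 1381 genes, and named 66.7% of weaker fibroblast-only and 92.0% of strong shared regions. The 1381 genes are 12.3% of the 11193 nameable genes. Among them 923 (66.8%, interval 64.3 to 69.3) also had an E14 or EPSC peak elsewhere on the gene and 458 had none. As names come from stem cell files, genes absent from them, such as Col1a1, Col3a1 and Postn, are in neither class. Of the 4441 nameable genes with any MEF peak, 57.2% had a stem cell peak. The 923 genes held 4079 of the named regions and the 458 held 1306, with 8 regions naming genes of both kinds. The split depends on which lists count: with E14 alone the first share is 46.6%, and with all 4 stem cell lists it is 73.0%.

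The 2 gene classes differ in how the regions are spread. In genes with stem cell peaks elsewhere the median gene had 2 regions, 311 of 923 genes (33.7%) had 1, and 160 of 4079 regions (3.92%) were 1000 bp or longer. In genes with no stem cell peak the median gene had 1 region, 251 of 458 genes (54.8%) had 1, and 248 of 1306 regions (19.0%) were that long. The median fold was 4.78 in the first class and 4.84 in the second. In the first class the nearest E14 or EPSC peak of the same gene lay a median of 4941 bp away (quartiles 1624 and 14669): 16.6% of the regions had one within 1000 bp and 33.7% none within 10000 bp. In 892 of the 923 genes MEF also shared another region with a stem cell list.

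Secreted matrix genes held the strongest named regions. The matrix glycoprotein and proteoglycan list had a strong region in 12 of its 22 nameable genes, beside 12.3% of all nameable genes. Of the 12, 6 had stem cell peaks elsewhere and 6 had none. Among all 11193 nameable genes 5947 had no peak in the 3 lists, and 1381 of the 4441 with a MEF peak had a strong region. Gene lists were chosen with earlier results of these data known, so the shares by list are description. Fbln2 encodes fibulin-2, which links elastic fibres and basement membranes. It had 14 strong regions among 15 MEF peaks and no peak in E14 or EPSC, and its region at chr6:91183062-91184404 had the highest -log10 q of all named regions, 4499, with a fold of 5.26. Its other 13 regions ran from 84.9 to 1546.

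Vcan encodes versican, a large chondroitin sulfate proteoglycan. All 13 of its MEF peaks were strong regions, E14 and EPSC had none, and the -log10 q ran from 134 to 1715. The longest, chr13:89827811-89833167, measured 5357 bp with a fold of 14.7, and the second longest, chr13:89842476-89845486, measured 3011 bp with a fold of 15.2. The highest fold, 30.8, belonged to a region of 258 bp. In the MEF list Vcan is thus marked along the whole gene while both stem cell lists are empty there.

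**Figure D2:**
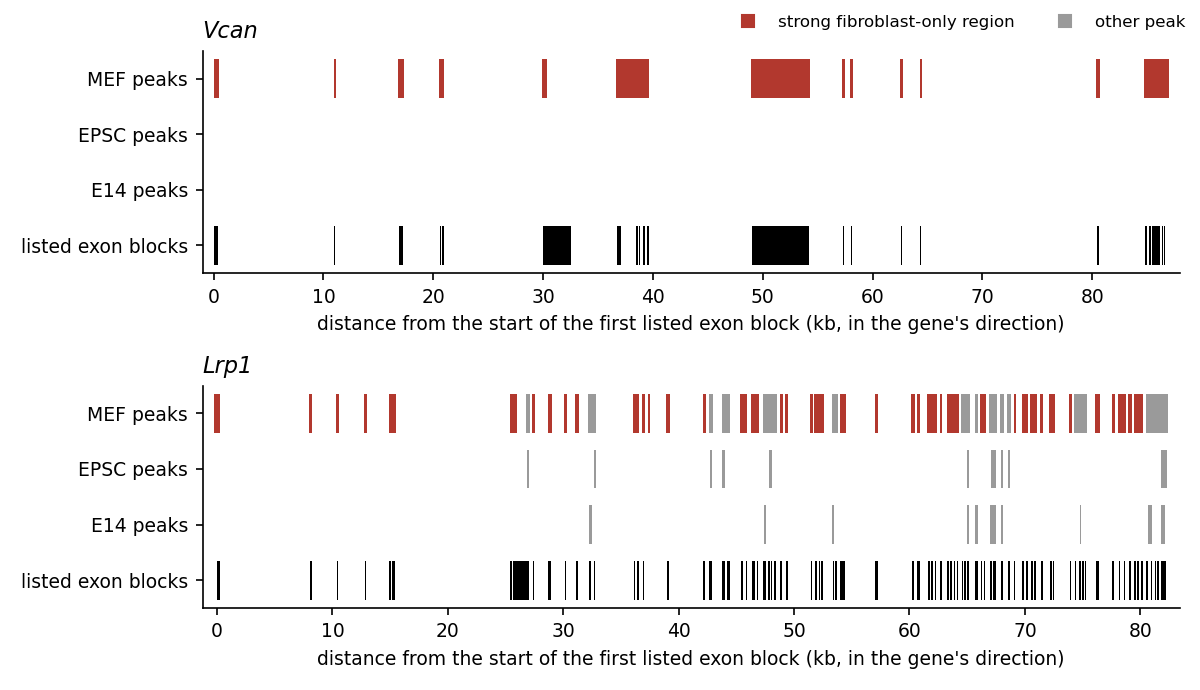
Peaks on Vcan and Lrp1 in the MEF, EPSC and E14 lists, as distance in kb from the start of the first listed exon block in the gene's direction, with the listed exon blocks below. All 13 MEF peaks on Vcan are strong fibroblast-only regions (red), whereas on Lrp1 40 of 53 MEF peaks are, and 10 EPSC and 10 E14 peaks lie among them.

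Tnc, for the adhesion-modulating glycoprotein tenascin C, had 2 named regions with -log10 q of 2317 and 1848, and Thbs1, for the matricellular protein thrombospondin 1, had 2 with a maximum of 866. Neither gene had a stem cell peak. Fn1, for fibronectin, was different: 43 MEF, 33 E14 and 39 EPSC peaks lay on it. Of its regions, 5 were strong and absent from the E14 and EPSC lists, with -log10 q up to 960 and folds from 2.03 to 4.32. Some basement membrane genes followed the same form, with 15 strong regions in Nid1 (nidogen 1) beside 3 E14 and 5 EPSC peaks. There were 14 in Lamb1 and 4 in Lamc1 (laminin chains) and 4 in Hspg2 (perlecan). Others did not: Nid2 had 20 MEF, 14 E14 and 20 EPSC peaks but no strong region. Lama5 had 3 E14 and 12 EPSC peaks and no MEF peak, and Lama4 had no peak in these lists. Ltbp1 and Ltbp3, which hold latent TGF-beta in the matrix, had 1 and 2 regions and no stem cell peak.

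The collagen and microfibril list had strong regions in 4 of 13 nameable genes (30.8%, beside 12.3% of all nameable genes). These were Col5a1, Col6a3, Emilin1 and Fbn1, all 4 without an E14 or EPSC peak. Col5a1, a fibril-nucleating collagen chain, had 9 regions with folds from 3.23 to 17.6, the highest at chr2:27892323-27894622. Col6a3, a chain of the microfibrillar collagen VI, had 2, with folds of 8.01 and 22.0, and Fbn1, for the microfibril protein fibrillin-1, had 3 with folds from 6.19 to 11.0. Emilin1, for an elastic fibre glycoprotein, had 3, and is the one of the 4 with a peak in a list from fewer nuclei, 1 peak at 5000. Col18a1 runs the other way, with 5 E14 and 18 EPSC peaks and 0 MEF peaks.

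The other 1612 strong regions met no listed exon block. Of these, 440 lay between listed blocks of a gene, most in Fbn1 (23), Col5a1 (19), Col6a3 (16), Trio (15), and Nav2 and Pxdn (14 each), followed by Cgnl1, Hmga2 and Ltbp1 (12 each). Between the outer listed blocks of Col5a1 and of Ltbp1, 1 stem cell peak lay on each gene, and 0 on Fbn1 and Col6a3. The other 1172 fell into 415 gaps between listed genes, and 63 gaps with 5 or more regions held 643 of them. A RefSeq table of the later build GRCm38.p6 was used to say which protein-coding genes neighbour each other there, with no region assigned to a gene and the examples chosen after the values were seen. The fullest gap, Cd109 to Cox7a2, held 47 regions from chr9:79447291 to 79566394, and Col12a1 is the single coding gene between. The gap Ercc5 to Col5a2 held 24, with Col3a1 among 3 genes between. Vps50 to Sgce held 19 within chr6:4455789-4491267, with Col1a2 among 7 genes between, and Gm11545 to Ppp1r9b held 12 within chr11:94797569-94812967, with Col1a1 among 8. Pard3 to Itgb1 held 17, with the semaphorin and VEGF co-receptor gene Nrp1 alone between.

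The 5 unnamed regions with the highest q each exceeded every named region other than the strongest of Fbln2. Those with a -log10 q of 6826 and 5004 exceeded that Fbln2 region as well. The first, chr6:29401324-29402448, had a -log10 q of 6826 and a fold of 11.5 and lay 4613 bp past the listed block of Flnc. The other 4 were at chr4:63669580-63669999 (5004), chr4:63660875-63661289 (4497), chr4:63677784-63679320 (4028) and chr4:63675847-63676268 (3808), between Tnc and Pappa with no coding gene between, 4051 to 20960 bp from a Tnc block. Tnc itself has 2741 bp of listed blocks and Flnc 100 bp. Between Polm and Pold2, where Aebp1 is the single coding gene between, 9 regions reached 3280. The highest fold of all, 72.7, was in the gap Ankrd50 to Plk4, where 19 regions lay and the cadherin-family gene Fat4 is 1 of 4 genes between.

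Of the matrix enzymes and inhibitors, 5 of 19 nameable genes had a strong region (26.3%, beside 12.3% of all nameable genes). A MEF peak lay on 14 of the 19, and 1381 of all 4441 nameable genes with a MEF peak had a strong region. Pcolce, which enhances procollagen processing, had 4 with folds from 1.77 to 2.73. Adamts1, a secreted protease, had 1. Neither had a stem cell peak. Mmp14, a membrane-bound matrix protease, and Plod1, a collagen lysyl hydroxylase, had 2 each, with EPSC peaks elsewhere on both genes.

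The receptors were the list with the largest share. This list too was chosen with earlier results of these data known, so its share is description. Of 24 nameable genes 23 had a MEF peak and 20 (83.3%) a strong region, beside 39.7% and 12.3% of all nameable genes. Of the 20, 11 had stem cell peaks elsewhere and 9 had none. Lrp1, a large endocytic receptor for proteases and matrix proteins, had 40 strong regions among 53 MEF peaks, with -log10 q up to 1391 and folds from 2.51 to 10.4, and 10 peaks each in E14 and EPSC. Igf1r had 13 (E14 4 peaks, EPSC 11), Notch2 16 (E14 4, EPSC 8), Igf2r 16 (E14 14, EPSC 28) and Insr 15 (E14 2, EPSC 0). In each of these receptors at least 1 stem cell list holds peaks elsewhere on the same gene.

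The 9 receptor-list genes without an E14 or EPSC peak at 100000 nuclei included those of classical mesenchymal ligands. Met, the receptor for hepatocyte growth factor, had 8 regions among 8 MEF peaks with -log10 q from 163 to 571, and the last, chr6:17521291-17528694, was 7404 bp long. Pdgfra, the PDGF receptor that marks fibroblasts, had 2 regions with a maximum of 221 and a fold of up to 8.15. Ddr1, a collagen-binding receptor kinase, had 7, and its relative Ddr2 had 1. Egfr and the type I activin and BMP receptor gene Acvr1 had 5 each, the Notch ligand gene Jag1 and Nrp2 had 4 each, and Axl had 1. Nrp2 had 2 E14 peaks in the list from 5000 nuclei, with a highest fold of 8.30.

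Actin cytoskeleton and focal adhesion genes had strong regions in 20 of 27 nameable members (74.1%, beside 12.3% of all nameable genes). Of these, 17 had stem cell peaks elsewhere. Plec, for the cross-linker plectin, had 7 regions, the highest at chr15:76018006-76019880 with a -log10 q of 3675 and a fold of 4.08, beside 9 E14 and 6 EPSC peaks elsewhere on the gene. Flna, for filamin A, had 7 strong regions among 14 MEF peaks, with 2 E14 and 9 EPSC peaks. Flnc, the muscle filamin, had 1 region on its 100 bp of listed exon, with -log10 q of 2359 and no stem cell peak. Myh9, for nonmuscle myosin heavy chain IIA, had 17 among 32 MEF peaks, with folds from 1.52 to 4.37.

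Of 14 nameable integrin and adhesion genes, 5 (35.7%) had a strong region, beside 12.3% of all nameable genes. All 5 were integrin genes with stem cell peaks elsewhere. Itgav, for the alpha V subunit, had 17 regions among 29 MEF peaks, with 1 E14 and 4 EPSC peaks, and Itga3 had 11 (E14 2, EPSC 5). Itga6 had 7, Itgb1 2 and Itga5 1.

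**Figure D3:**
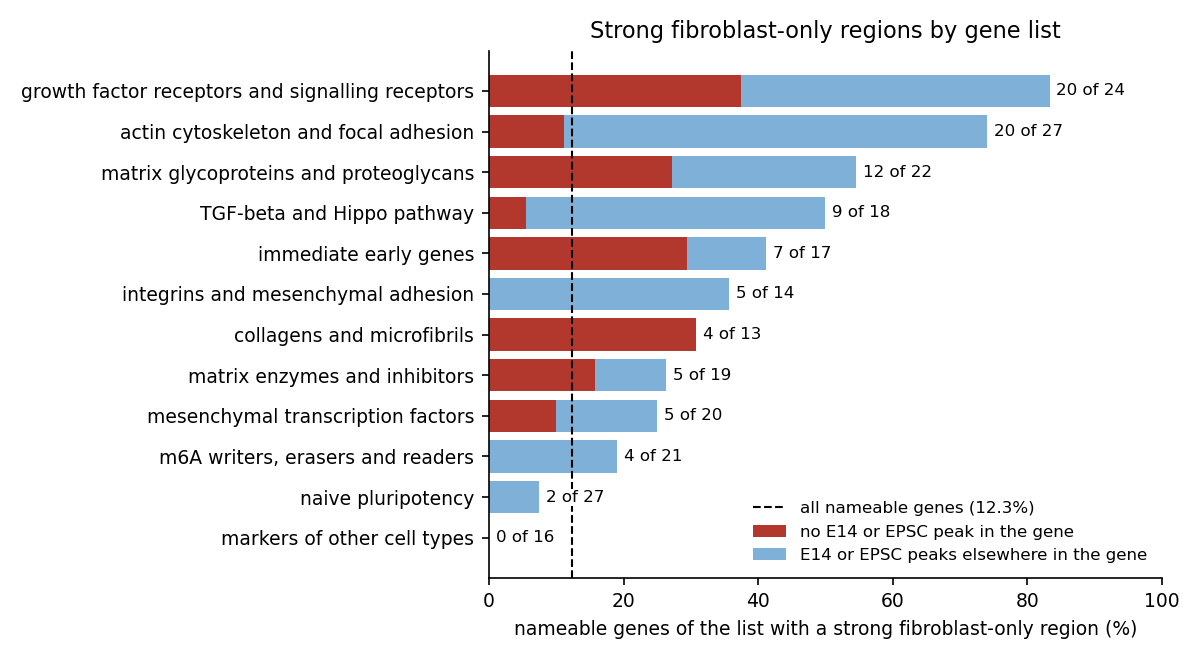
Share of the nameable genes of each of 12 lists that had a strong fibroblast-only region (horizontal axis, %), split by whether the gene also had an E14 or EPSC peak, with counts at the bar ends and a dashed line at the 12.3% of all nameable genes. Receptor (20 of 24) and actin (20 of 27) genes have the longest bars, and the collagen bar alone consists wholly of genes with no stem cell peak. The lists were chosen with earlier results of these data known.

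In the TGF-beta and Hippo list 9 of 18 nameable genes (50%) had a strong region, beside 12.3% of all nameable genes. Of the 9, 8 had stem cell peaks elsewhere. Ccn1, a secreted matricellular target of YAP and TEAD, had 2 adjoining regions with -log10 q of 2390 and 1770 and folds of 5.42 and 5.50, and its one EPSC peak had a fold of 3.40. Lats2, a kinase that restrains YAP, had 5 regions and no stem cell peak. Amotl2 and Amotl1, scaffolds that bind YAP, had 7 each, and Yap1 and Tead1 had 2 each.

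Of 20 nameable mesenchymal transcription factors, 16 had a MEF peak but 5 (25%) a strong region, beside 12.3% of all nameable genes. Among all 4441 nameable genes with a MEF peak 1381 had a strong region, a share close to the 5 of 16 here. Nfix and Nfic had 4 each, Nfib 4, Gli3, an effector of hedgehog signalling, 5, and Zeb1, a repressor of epithelial genes, 2. Nfix and Gli3 had no stem cell peak. Immediate early genes, which respond to stimulation within minutes, had a strong region in 7 of 17 nameable members (41.2%). These were Jun, Egr1, Ier5, Junb, Dusp1, Dusp5 and Klf6. Jun had a single region of 2220 bp, chr4:94716615-94718834, with a -log10 q of 1690 and a fold of 6.80, and no stem cell peak. Egr1 had 1 strong region and 1 EPSC peak elsewhere on the gene.

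Of 27 nameable pluripotency genes, 2 had a strong region, beside 12.3% of all nameable genes. Il6st, which encodes the shared cytokine receptor gp130, had 11 regions among 16 MEF peaks beside 3 E14 and 4 EPSC peaks, and Klf5 had 1. The m6A machinery had 4 of 21: Virma, a subunit of the methyltransferase complex, had 10 regions among 21 MEF peaks with folds from 4.77 to 14.8, beside 2 E14 and 5 EPSC peaks. Zc3h13, another subunit, and the readers Ythdf1 and Ythdf3 had 1 each.

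The 340 genes with 5 or more regions included 134 with 10 or more, which held 2244 regions, and 27 with 20 or more. Trrap, a scaffold of histone acetyltransferase complexes, had 54 strong regions among 60 MEF peaks, with 0 E14 and 5 EPSC peaks. Wdfy3, an autophagy adaptor, had 46 of 60 (E14 1, EPSC 4), Birc6, a ubiquitin ligase that inhibits apoptosis, 44 of 69 (E14 4, EPSC 23), and Myof, a membrane-repair protein, 40 of 45 (E14 2, EPSC 0). Rnf213 had 39 of 56, Fryl 37 of 49, Herc2 37 of 71 and Syne2, a nuclear envelope anchor, 33 of 99. Hectd4 had 40 of 52 and was the one gene among the 10 with the most regions that had no stem cell peak.

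**Figure D4:**
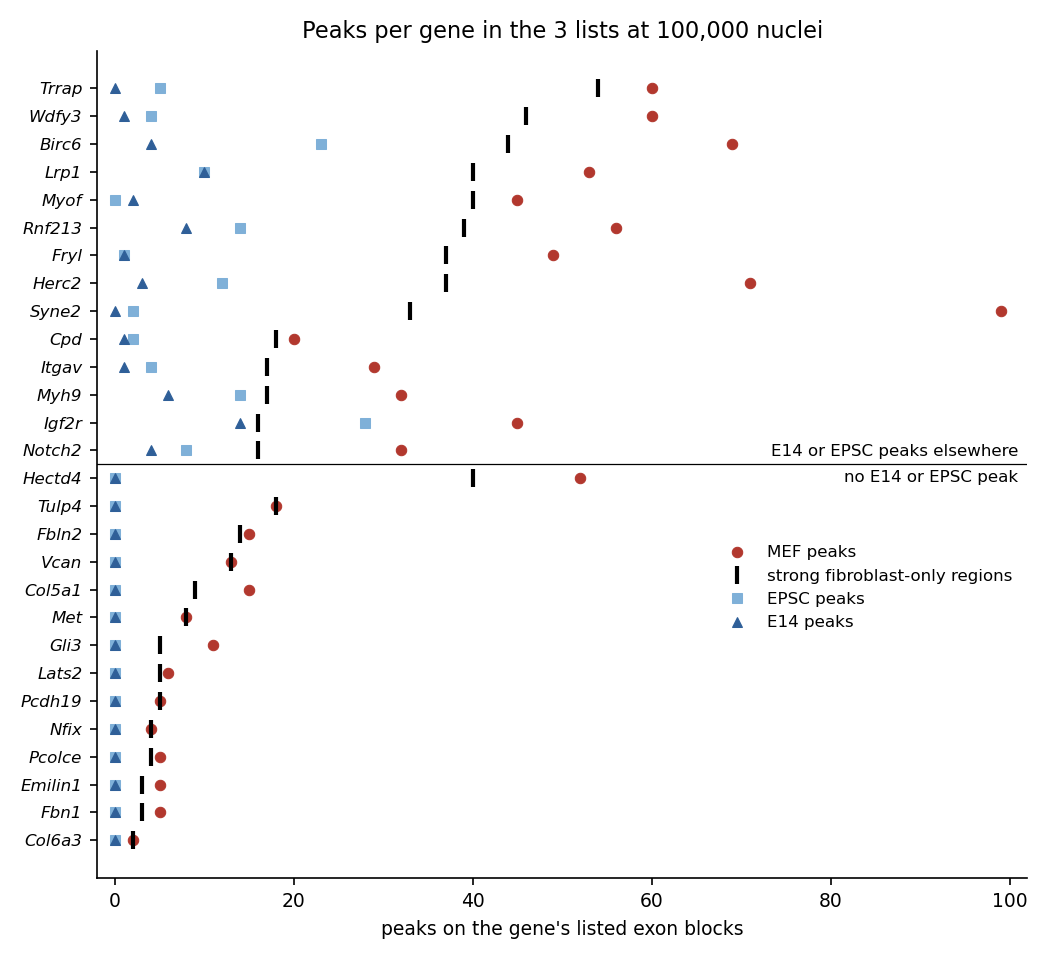
Peaks on the listed exon blocks of 28 named genes in the MEF (circles), EPSC (squares) and E14 (triangles) lists, with the number of strong fibroblast-only regions as vertical ticks. Above the line are genes with stem cell peaks elsewhere, from Trrap with 54 strong regions down, and below it genes with none, from Hectd4 with 40 down.

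Strong regions lay close together, 68.1% of them with another within 5000 bp, and they were unevenly spread over chromosomes. Chromosome 5 held 924 of them (13.2%), beside 8.81% of MEF peaks, 5.29% of E14 peaks and 5.57% of EPSC peaks. On chromosome 5, 27.5% of the regions with a MEF peak were strong fibroblast-only, against 11.9 to 20.8% (median 17.3%) on the 19 other chromosomes compared. In bins of 10 Mb with at least 50 such regions, 14 of 15 chromosome 5 bins lay above the median of the other bins (15.4%), with a chromosome 5 median of 27.6%. Of the 27 genes with 20 or more regions, 8 were on chromosome 5, among them Trrap, Wdfy3, Hectd4, Fryl, Slit2, Ep400 and Med13l. Slit2, a secreted guidance cue, had 32 regions and no stem cell peak.

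With each gene counted once, on chromosome 5 131 of 727 nameable genes (18.0%) had a strong region, against 7.83 to 19.0% (median 11.5%) on the other 19, and genes that had any held 5.52 each, against at most 5.13. Among regions shared with stem cells, 54.7% on chromosome 5 were strong, against 29.7 to 60.7% (median 50.5%) on the other 19. Copy number in the CF1 cells was not analysed here, so its part in these values was not tested.

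**Figure D5:**
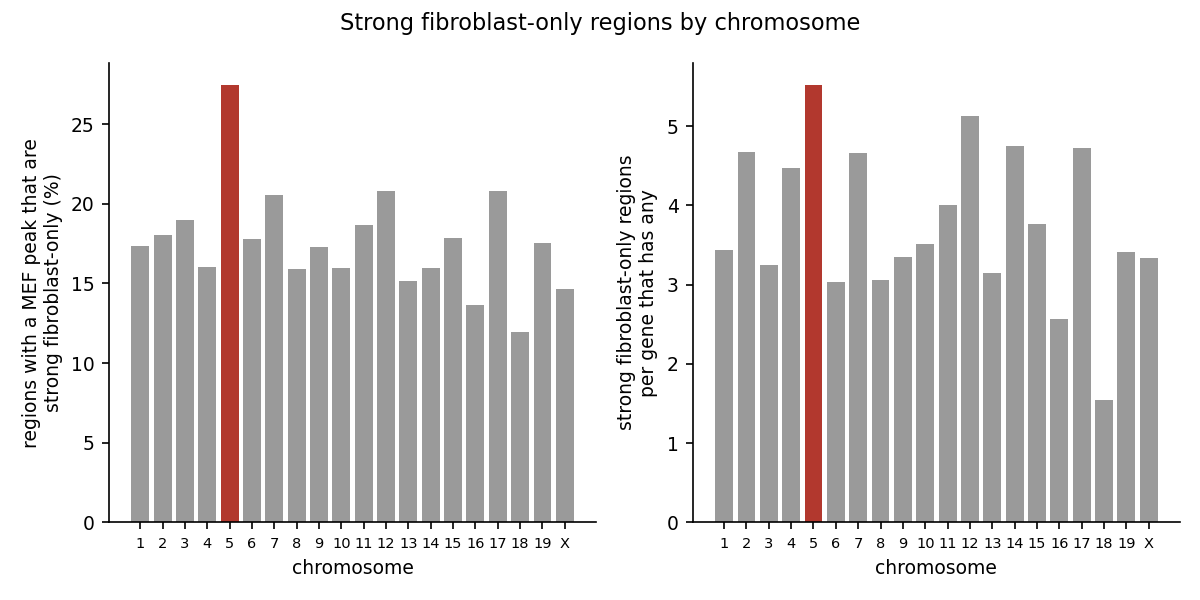
Left, share of regions with a MEF peak that were strong fibroblast-only (%), and right, strong fibroblast-only regions per gene that had any, for chromosomes 1 to 19 and X. Chromosome 5 (red) is the highest in both, at 27.5% and 5.52.

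The E14 lists from fewer nuclei, which the rule did not use, rarely reached these regions. All regions with a MEF peak include the 7861 shared with E14 or EPSC, so a share below theirs was partly set by the rule. Weaker fibroblast-only regions were chosen by the same absence, and the lists together met them less often. The list from 25000 nuclei met 32 of 6989 (0.458%), against 4.38% of all regions with a MEF peak. The list from 5000 nuclei met 220 (3.15%, interval 2.76 to 3.58), against 5.31%. Of weaker fibroblast-only regions these lists met 0.293% (25000 nuclei) and 1.24% (5000 nuclei). At 25000 nuclei the intervals of the strong and weaker sets overlap (0.325 to 0.646 and 0.231 to 0.371). Together the lists met 242 (3.46%), against 7.3% of all regions with a MEF peak, 1.48% of weaker fibroblast-only and 32.9% of strong shared regions. Seen from the lists, 33 of 3923 peaks (0.841%) at 25000 nuclei and 228 of 4644 (4.91%) at 5000 nuclei fell on strong fibroblast-only regions. Those 228 peaks had a median fold of 4.16, and all peaks of that list 6.01.

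The regions met at 5000 nuclei named 183 genes, 134 of them with stem cell peaks elsewhere at 100000. Ep400, a chromatin remodeller, and Eef2, a translation elongation factor, had 3 such regions each. One region of Lrp1, chr10:127003435-127003929, had a MEF fold of 7.58 and an E14 fold of 7.21 at 5000 nuclei. For these members the absence from the E14 list at 100000 nuclei was not repeated in the smaller samples.

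The C57BL/6 stem cell set, with its other antibody and callers, held peaks at many of the same places. Wild-type MeTPeak peaks, whose blocks also served to name regions, met 4411 of all 6989 regions (63.1%, interval 62.0 to 64.2) and 59.9% of all regions with a MEF peak. Counted over the 5377 named regions the share was 82.0%, against 81.5% of all named regions with a MEF peak, 75.1% of weaker fibroblast-only and 96.7% of strong shared regions. The share with Mettl3 KO peaks was 77.9%. As the named regions include those named by these very blocks, the shares over named regions are raised by the naming.

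By gene, 97.6% of the 923 genes with stem cell peaks elsewhere and 71.2% of the 458 genes without had a wild-type MeTPeak peak, against 52.1% of all nameable genes. In the list of the KO the shares were 90.7%, 45.0% and 41.4%. An E14 peak at 25000 or 5000 nuclei lay on 61.5% of the first class and 18.6% of the second, against 18.1% of all nameable genes. A gene is nameable only through blocks of these same C57BL/6 files, so genes absent from them are not counted and the MeTPeak shares are raised by the naming. Within the nameable genes, those of the second class had a wild-type MeTPeak peak more often than all (71.2% and 52.1%). All nameable genes include those with no peak in the 3 lists, of which 25.5% had one. The second class was below genes with a MEF peak but no strong region (79.2%). It was also below genes with a stem cell peak but no MEF peak (82.7%). In E14 at fewer nuclei the second class had a peak about as often as all nameable genes, and more often than genes with no peak in the 3 lists (2.76%). Its 85 of 458 genes were a smaller share than the 918 of 3060 with a MEF peak but no strong region. The same held against the 293 of 805 with a stem cell peak but no MEF peak. Longer genes offer more room for a peak: the listed exon length had a median of 5725 bp in the first class, 3740 bp in the second and 2038 bp in all, and its part was not tested.

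Transcript level in stem cells was lower in the second class. Each gene was represented by its 1 table region with the most reads, summed over m6A-CT and input of both genotypes. In wild-type input that region had a median of 6.91 RPM (reads scaled to library size, interval of the median 6.39 to 7.52) over 904 genes with stem cell peaks elsewhere. The median was 2.15 RPM (1.73 to 2.51) over 442 genes with none, and 1.55 RPM over all 10364 genes in the table. Per kb of region the medians were 3.58, 1.08 and 1.69 RPM, so the second class was above all genes per region and below them per kb. Over only the table regions that overlap strong regions the medians were 2.37 and 1.20 RPM. The log2 ratio of m6A-CT to input in wild-type cells had medians of 2.42, 2.14 and 1.67. As the choice of region counts m6A-CT reads, it can raise these ratios, and its part was not tested.

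Examples show both ends of that range. Fn1 had 46.5 RPM in wild-type input and 252 RPM in wild-type m6A-CT, and Plec 44.5 and 523 RPM. Vcan had 3.61 RPM in input and 87.3 RPM in m6A-CT, so this gene with no E14 or EPSC peak was strongly enriched in the C57BL/6 stem cells. Fbln2 had 0.621 and 3.46 RPM, and Tnc was listed at 0 RPM in wild-type input and at 0.458 RPM in m6A-CT. Hectd4 had 3.73 and 15.4 RPM.

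In Mettl3 KO cells, which lack the catalytic subunit, the change in m6A-CT relative to input was given by the authors' deposited table. Its single Mettl3 region had 1.71 RPM in wild-type and 2.47 RPM in KO input, and whether it lies in the deleted part is not given in the sources used here. Each gene was again represented by its 1 table region with the most reads, so these counts do not describe whole genes. At the authors' FDR of 0.05, 848 of 904 genes with stem cell peaks elsewhere (93.8%) were lower in KO and 55 higher. Of 442 genes with none, 417 (94.3%) were lower and 25 higher. All genes of the table were lower in 87.1% of cases and higher in 12.4%, and nearly every region of the table is past that FDR. The medians of the authors' log2 change were -1.26, -1.50 and -1.33.

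By region rather than gene, strong fibroblast-only regions met 2900 regions of the authors' deposited table, of which 93.0% were lower in KO, against 88.8% of all 33473. The share was 91.8% on weaker fibroblast-only regions and 95.6% on both strong and weaker shared regions, so it was not particular to the strong fibroblast-only set. The median of the authors' deposited log2 change was -1.25 on the strong fibroblast-only regions and -1.35 in the whole table. The median wild-type log2 ratio of m6A-CT to input on these was 1.95 (interval 1.91 to 1.99), against 1.62 for the whole table and 2.74 on strong shared regions. The gene values that follow are each from 1 region of the authors' deposited table, the one with the most reads. In that table the log2 change was -2.16 for Vcan, -1.51 for Fbln2, -1.68 for Jun, -1.26 for Ccn1, -3.95 for Emilin1 and -1.55 for Lrp1 (over 0.1 kb). Pcolce went the other way in that table, with 0.87 and an m6A-CT level of 3.99 RPM below its input of 5.99 RPM in wild-type cells. Among the named genes, Myof (2.02, over 0.15 kb), Herc2 (0.72) and Flnc (5.79) were also higher in KO in the authors' deposited table. The Flnc value rests on 11 reads over 0.1 kb, with 0 RPM listed in wild-type m6A-CT. All 10 genes given here with a log2 change were past the authors' FDR of 0.05.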

How the data were processed

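The submitters' processing notes name Trim Galore, STAR 2.7.2, MACS2 and the build mm9, without settings. Whether replicates were pooled is not stated. The deposited score is a whole-number form of -log10 q. The deposited fold enrichment is the summit ratio over an unstated background, and deposited -log10 p and -log10 q come from the caller, with -log10 q above 10.0 throughout. MeTPeak lists hold a deposited p-value score, log10 values of p and FDR and a fold, per the file headers. The exomePeak2 table holds deposited RPM, 1 column per genotype and library kind, a log2 fold change, a p-value and an FDR made by the authors. Other deposited columns, such as summit offsets and exon blocks, are positions. RPM values were whole multiples of 1 read to within 0.01 reads for 100% of values, giving totals of 39310394, 45090626, 37532658 and 51031598 reads. With 1 column per arm no count test was run.

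Peaks overlapping by at least 1 bp were merged without strand (Python 3.11.15, pandas 2.3.3). Exon blocks of the 3 genotype files named regions, synonyms being resolved with RefSeq GRCm38.p6, whose coordinates were not used. Of 134551 listed blocks, 200 are 10000 bp or longer. Log2 ratios used a pseudocount of 0.1 RPM. No mm9 sequence was used here. Scripts were checked on simulated intervals. Members and lists were chosen with earlier results of these data known. Named genes are those of the 12 strongest named regions, the 10 with most regions, the 8 strongest per class, up to 5 per list, the 5 strongest unnamed regions and 3 regions on each side of the threshold. Genes beyond these, such as the other list members and the neighbours of unnamed regions, were named after their values were seen. The tested alternatives are those of the closing section. Results on a few named genes are not reported here.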

Additional observations from a re-analysis of the deposited data

How the results depend on the processing

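Of 69 alternative values, 47 kept within the error or within 1.5 times the main count, 22 moved and 0 turned direction. The number of regions was 12143 at a threshold of 30 and 2917 at 100, and the share of genes with stem cell peaks elsewhere was 62.2% and 69.5% there, 73.0% when E14 peaks at 25000 and 5000 nuclei count and 46.6% with E14 peaks at 100000 alone. The share of named regions was 71.8% with MeTPeak blocks alone, 40.9% with exomePeak2 blocks alone and 83.2% with gene spans. The share met by MeTPeak was 77.9% with the KO list. Median input was 2.37 and 1.20 RPM on table regions overlapping strong regions, and the median log2 ratio was 2.32 and 1.81 with a pseudocount of 0.5 RPM, for genes with and without stem cell peaks. At a threshold of 30 the list counts became 8 for matrix enzymes, 8 for integrins, 9 for mesenchymal transcription factors and 5 for pluripotency, and at 100 they became 2 for matrix enzymes, 3 for transcription factors, 1 for pluripotency and 1 for the m6A machinery. The cause of these moves was not tested.

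No paired analysis was possible because the peak lists and tables give 1 value per group and none per replicate. For the same reason leaving out a replicate could not be run. Read depth behind the 3 lists is not known, which limits what a missing stem cell peak shows.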

Other observations

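Several regions outside the matrix genes stood out by length or fold. Neat1, a nuclear RNA that builds paraspeckles, had 3 strong regions of 3269 to 6795 bp with folds from 10.4 to 14.0, beside 3 E14 and 3 EPSC peaks elsewhere on it. Hmga2, a chromatin protein gene of embryonic growth, had 12 strong regions between its listed blocks with a highest fold of 49.9 and 0 on a listed block. Abca1, a cholesterol exporter, had 31 strong regions with folds of up to 33.8, 3 E14 and 2 EPSC peaks elsewhere and 10 wild-type but 0 Mettl3 KO MeTPeak peaks. Pxdn, for a matrix peroxidase, had 9 named regions and 14 more between its blocks, and no E14 or EPSC peak. The gap Phf14 to Tmem106b held 26 unnamed regions with folds from 3.55 to 22.3, and Thsd7a is the single coding gene between.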
